A study of Mus musculus with 6 samples.

Results

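The genes described here encode the subunits of RNA polymerases I, II and III, with the initiation factors of polymerases I and III, in the mouse uterus. They were chosen by name: every gene whose symbol in the platform annotation begins with Polr1, Polr2 or Polr3, together with Taf1a, Taf1b, Taf1c, Taf1d, Rrn3, Ubtf, Brf1, Brf2, Gtf3c1 and Gtf3c2. This gave 35 genes of 18193 measured, 25 of them subunits and 10 of them factors. Polr2k and Polr2l are not analysed here. The samples were uterine horns of ovariectomized females of the GATA2 f/f genotype on a mixed background, aged 8 weeks. One group received P4, the usual abbreviation of progesterone (3 arrays), and the other received Oil, a usual carrier of steroids (3 arrays). All animals of both groups thus carried the GATA2 f/f alleles, which by convention are floxed, and the labels name no recombinase. The labels give no dose, no time after treatment and no statement on pooling. They do not tie an array to an animal either, so the spread behind each p-value is that between arrays and may be technical.

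RNA polymerase I makes the precursor of the large ribosomal RNAs in the nucleolus, polymerase II makes messenger RNAs, and polymerase III makes transfer RNAs, the smallest ribosomal RNA and other short RNAs. Each enzyme has its own large catalytic subunits, and some small subunits are shared: Polr1c and Polr1d belong to polymerases I and III, and Polr2e, Polr2f and Polr2h to all 3 enzymes. Progesterone acts in the uterus through its nuclear receptor, and growing tissue is known to need more ribosomes and transfer RNA. The arrays measure the messenger RNA of the subunits, and they measure neither the enzymes nor the RNAs that polymerases I and III make.

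Values are linear probe set intensities, given for replicates 1, 2 and 3 of each group. Differences are P4 minus Oil on the log2(intensity + 16) scale ± SE, which understates changes of dim genes. Adjusted p is from limma over all 18193 genes with Benjamini-Hochberg adjustment, and a gene is said to rise or fall where it is under 0.05. The replicate numbers passed a check for pairing described with the processing, though the labels do not say what a number shares. A second adjusted p, from a fit that takes each number as a block, is therefore added where it changes the call. In whole tissue, fewer cells of a type and less RNA per cell cannot be told apart. The summed intensity of 5 defining genes of the uterus (Pgr, Esr1, Hoxa10, Hoxa11 and Wnt7a) ran from 15832 to 17438 on P4 arrays and from 16121 to 18131 on Oil arrays. All 5 passed the test: Hoxa10 rose by 0.81 ± 0.10, Hoxa11 rose by 0.89 ± 0.08, Esr1 fell by 0.36 ± 0.07 and Wnt7a fell by 1.63 ± 0.14. Wnt7a was dim on the P4 arrays, with 112, 84.6 and 128, against 387, 363 and 342 on the Oil arrays. Gata2 rose by 0.75 ± 0.11 (adjusted p 0.00541) and Pgr, the progesterone receptor, fell by 0.86 ± 0.08 (adjusted p 0.00124).

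Of all genes measured 6.08% were called higher on P4 arrays and 6.94% lower (13.0% in either direction). Of the 35 members 5 rose, of which 3 belong to polymerase I or its initiation factor (Polr1e, Polr1a and Rrn3), 1 to polymerase III (Polr3e) and 1 to all 3 enzymes (Polr2f). A further polymerase I gene, Cd3eap, rose with them, and Maf1, a repressor of polymerase III, fell. The subunits found only in polymerase II gave no call without the replicate block, and 3 of 7 (Polr2c, Polr2d and Polr2i) were higher with it. Polr1e and Cd3eap encode the partners of a dimer particular to polymerase I, Rrn3 encodes the factor that joins polymerase I to its promoter complex, and Polr1a encodes the largest catalytic subunit. Cd3eap lies outside the symbol rule and comes from a list of other polymerase I genes. The 250 bases upstream of the annotated start of these 4 genes are shown because they are the polymerase I genes that rose. The 4 were thus chosen by their result, and Polr3e and Polr2f, which also rose, are not printed. The sequences are those of RefSeq on GRCm38.p6: chr4:45018359-45018608 on the + strand for Polr1e, chr7:19359484-19359733 on the - strand for Cd3eap, chr16:13780449-13780698 on the + strand for Rrn3 and chr6:71908803-71909052 on the + strand for Polr1a. Capitals mark matches to CACGTG, the E-box bound by MYC and MAX, and to AGAACA, a core element of progesterone receptor sites, which reads TGTTCT on the other strand.
Polr1e: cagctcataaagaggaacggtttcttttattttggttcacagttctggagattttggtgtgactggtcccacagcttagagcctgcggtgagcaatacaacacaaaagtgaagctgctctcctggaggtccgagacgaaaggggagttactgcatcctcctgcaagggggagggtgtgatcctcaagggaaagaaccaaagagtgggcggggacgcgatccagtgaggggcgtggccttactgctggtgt
Cd3eap: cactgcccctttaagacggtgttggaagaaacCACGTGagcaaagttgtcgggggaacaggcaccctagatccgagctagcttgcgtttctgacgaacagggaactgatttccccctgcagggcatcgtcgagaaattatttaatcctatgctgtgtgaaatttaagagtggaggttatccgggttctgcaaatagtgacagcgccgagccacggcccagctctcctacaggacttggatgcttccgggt
Rrn3: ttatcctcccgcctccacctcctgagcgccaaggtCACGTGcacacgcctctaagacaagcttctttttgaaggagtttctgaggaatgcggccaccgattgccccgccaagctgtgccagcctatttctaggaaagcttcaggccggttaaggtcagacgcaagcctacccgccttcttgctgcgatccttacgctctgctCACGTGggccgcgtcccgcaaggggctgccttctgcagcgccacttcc
Polr1a: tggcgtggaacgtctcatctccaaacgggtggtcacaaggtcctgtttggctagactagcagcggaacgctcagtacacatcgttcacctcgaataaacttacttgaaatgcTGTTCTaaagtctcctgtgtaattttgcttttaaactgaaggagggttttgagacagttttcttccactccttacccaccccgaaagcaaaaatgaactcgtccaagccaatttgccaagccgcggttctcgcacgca

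The search covered these 250 bases and both strands for CACGTG, for the element AGAACA, and for the GATA factor element, which is written AGATAA. No match shown overlaps another. Rrn3 has an E-box beginning 215 bases and another beginning 48 bases before the start, Cd3eap has an E-box 218 bases before it, and Polr1a has TGTTCT 138 bases before it. Polr1e holds none of the 3 motifs in this window, and neither do Polr3e and Polr2f, which also rose. Of the 35 members 29 had a promoter in the table, and 3 of these genes held CACGTG (10.3%), against 6.86% of all 27025 genes in the table. Besides Rrn3 these were Polr3c and Polr3gl, neither of which rose: their differences were -0.21 ± 0.10 and -0.37 ± 0.12. CACGTG was thus held by 1 of the 5 called members and by 2 of the 24 members not called that had a promoter. AGAACA was found in 4 member genes (13.8%), against 18.2% of all genes. AGATAA was found in 1 member gene (3.45%), against 11.4% of all genes. These matches describe letters in a window and say nothing of binding.

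Polr1e had 180, 213 and 195 on the P4 arrays, against 111, 91.1 and 126 on the Oil arrays. Every P4 array was above every Oil array, and the difference was 0.76 ± 0.12 (adjusted p 0.00769), the largest among the 35 members. Its other probe set had a difference of 0.70 ± 0.15. Cd3eap, its dimer partner, had 315, 306 and 262 on the P4 arrays, against 141, 164 and 156 on the Oil arrays, again without overlap. Its difference was 0.87 ± 0.10 (adjusted p 0.00243). Both genes remained called without any 1 array.

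Rrn3 had 611, 659 and 720 on the P4 arrays, against 432, 423 and 484 on the Oil arrays. The groups did not overlap, and Rrn3 rose by 0.55 ± 0.09 (adjusted p 0.00921). Polr1a had 491, 436 and 428 on the P4 arrays, against 355, 353 and 333 on the Oil arrays, and rose by 0.36 ± 0.09 (adjusted p 0.031). This call was lost with any single array left out other than P4 replicate 3 (up to 0.0984), and the mean of its 5 probe sets did not pass either (0.0855), whose own differences ran from -0.13 to 0.67. Polr1b, the second-largest subunit of polymerase I, had 234, 258 and 247 on the P4 arrays, against 215, 212 and 188 on the Oil arrays. Its groups did not overlap either, but the difference of 0.25 ± 0.09 did not pass (adjusted p 0.119).

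**Figure D1:**
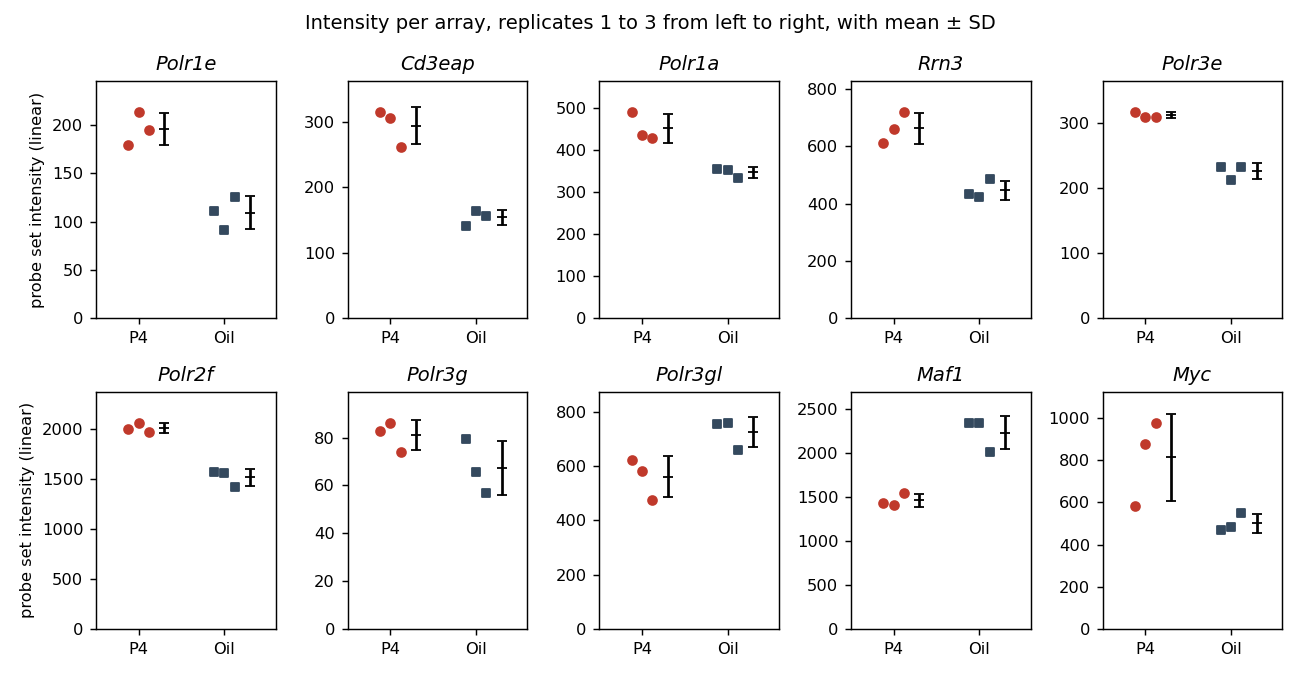
Linear probe set intensity (vertical axis, from 0) of 10 genes on the 3 P4 arrays (circles) and the 3 Oil arrays (squares), with the mean ± SD of each group beside them. The P4 points of Polr1e, Cd3eap, Polr1a, Rrn3, Polr3e and Polr2f all lie above the Oil points, and those of Maf1 and Polr3gl lie below.

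Other polymerase I subunits showed smaller differences. Twistnb, which encodes a stalk subunit, had a difference of 0.09 ± 0.09, and Znrd1, a small subunit, had 0.12 ± 0.08. In the list of 6 measured polymerase I genes outside the symbol rule, 1 rose (Cd3eap) and 0 fell, beside 6.08% and 6.94% of all genes. At an unadjusted limma p under 0.05, 1 was higher and 1 lower. Tbp, the TATA-binding protein used by all 3 enzymes, had a mean of 231 ± 29.1 on the P4 arrays and 225 ± 6.79 on the Oil arrays (SD, n = 3 each), a difference of 0.03 ± 0.10 (adjusted p 0.902).

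The promoter factors of polymerase I did not move as 1 block. Of the 6 measured, Rrn3 rose and the others did not pass, where 6.08% of all genes rose. Taf1d, a subunit of the promoter selectivity complex, had 691, 741 and 785 on the P4 arrays, against 597, 465 and 613 on the Oil arrays. The groups did not overlap and the difference was 0.40 ± 0.12 (adjusted p 0.0627, and 0.0263 with the replicate block). All 7 probe sets of Taf1d had positive differences, from 0.17 to 0.92. Taf1b, a further subunit of the same complex, went the other way: it had 135, 157 and 135 on the P4 arrays, against 180, 196 and 170 on the Oil arrays, a difference of -0.32 ± 0.10 (adjusted p 0.0712, and 0.0279 with the block). Ubtf, the nucleolar protein UBF that opens ribosomal genes for polymerase I, had a difference of 0.34 ± 0.12 (adjusted p 0.108, and 0.0178 with the block) with overlapping groups. Taf1c and Taf1a had differences of 0.10 ± 0.08 and -0.18 ± 0.12.

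Among the 9 members specific to polymerase III, Polr3e rose and the other 8 did not pass, where 6.08% of all genes rose. Polr3e, which pairs with Polr3d in a peripheral dimer of the enzyme, had 317, 310 and 310 on the P4 arrays, against 233, 212 and 233 on the Oil arrays. The groups did not overlap, and the difference was 0.44 ± 0.08 (adjusted p 0.0119), a call lost without Oil replicate 2 (0.0599). Polr3d had a difference of 0.20 ± 0.08 without overlap (adjusted p 0.17). The catalytic subunits Polr3a and Polr3b both overlapped between groups. Polr3a had 270, 304 and 217 on the P4 arrays, against 225, 217 and 232 on the Oil arrays (0.21 ± 0.12, adjusted p 0.354). Polr3b had 211, 243 and 211 on the P4 arrays, against 210, 202 and 222 on the Oil arrays (0.06 ± 0.09, adjusted p 0.759). P4 replicate 2 was the highest array for both genes, and without it Polr3b had a difference of -0.0018.

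Polr3g and Polr3gl encode alternative versions of the same polymerase III subunit, and their differences had opposite signs. Polr3g had 82.9, 86.2 and 74.1 on the P4 arrays, against 79.4, 65.8 and 56.6 on the Oil arrays. These dim values overlapped between groups, and the difference was 0.23 ± 0.12 (adjusted p 0.282). Polr3gl had 622, 583 and 476 on the P4 arrays, against 753, 759 and 660 on the Oil arrays, without overlap. Its difference was -0.37 ± 0.12 (adjusted p 0.0792, and 0.014 with the block). The difference between the 2 genes was not tested. Polr3c, Polr3f and Polr3k had differences of -0.21 ± 0.10, 0.03 ± 0.14 and 0.03 ± 0.13.

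The polymerase III initiation factors gave no call: 0 of 4 passed in either direction by limma, beside 13.0% of all genes. At an unadjusted limma p under 0.05 the count was 0 too. Brf1, the TFIIIB subunit of most polymerase III promoters, had a difference of 0.06 ± 0.08, and Brf2, its counterpart at other promoters, had -0.13 ± 0.10. Gtf3c1 and Gtf3c2, subunits of TFIIIC, had -0.03 ± 0.08 and -0.20 ± 0.10. All 5 probe sets of Gtf3c2 had negative differences, from -0.31 to -0.20, and their mean passed at -0.26 (adjusted p 0.0386).

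In the list of 14 measured polymerase III genes outside the symbol rule, 0 rose and 1 fell, with 1 higher and 3 lower at an unadjusted limma p under 0.05. With the replicate block 0 rose and 2 fell. Of all genes 6.08% rose and 6.94% fell, and with the block 9.29% were higher and 11.6% lower. The listed gene that fell without the block was Maf1. It encodes a repressor that binds polymerase III and shuts off its initiation when nutrients are short. Maf1 had 1431, 1410 and 1543 on the P4 arrays, against 2340, 2344 and 2011 on the Oil arrays. All P4 arrays were below all Oil arrays, and Maf1 fell by 0.60 ± 0.09 (adjusted p 0.0049), a call that held without any 1 array.

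Of the 7 subunits specific to polymerase II, 0 passed in either direction by limma, beside 6.08% higher and 6.94% lower of all genes. At an unadjusted limma p under 0.05, 3 of the 7 were higher and 0 lower. The counts at that p were 2165 higher and 2677 lower of all 18193 genes. Polr2a, the largest catalytic subunit, had 1312, 1243 and 1347 on the P4 arrays, against 1316, 1414 and 1430 on the Oil arrays (-0.09 ± 0.07, adjusted p 0.513). Polr2b, the second-largest, had 1284, 1465 and 1470 on the P4 arrays, against 1367, 1337 and 1254 on the Oil arrays (0.09 ± 0.08, adjusted p 0.581). Both catalytic subunits overlapped between groups. Polr2i, a small subunit, had 1259, 1411 and 1370 on the P4 arrays, against 1081, 1189 and 1021 on the Oil arrays, without overlap (0.29 ± 0.09, adjusted p 0.0647, and 0.03 with the block). Polr2c (0.28 ± 0.09, adjusted p 0.0716, and 0.0473 with the block) and Polr2d (0.25 ± 0.08, adjusted p 0.0974, and 0.0402 with the block) did not overlap between groups either. The same was true of Polr2g (0.17 ± 0.08, adjusted p 0.237). Polr2j, at 0.04 ± 0.09, and the associated protein Polr2m, at 0.09 ± 0.07, did not pass.

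Of the 3 measured subunits shared by all enzymes, Polr2f rose. It had 2001, 2065 and 1968 on the P4 arrays, against 1572, 1563 and 1421 on the Oil arrays. The groups lay well apart and the difference was 0.40 ± 0.07 (adjusted p 0.0109). Its other probe set had a difference of 0.03 ± 0.11, and the mean of both did not pass (0.0817). Polr2h had 1088, 1076 and 1225 on the P4 arrays, against 969, 880 and 863 on the Oil arrays, without overlap (0.32 ± 0.09, adjusted p 0.0509, and 0.0363 with the block). Polr2e overlapped between groups at -0.06 ± 0.11. The subunits shared by polymerases I and III, Polr1c and Polr1d, overlapped as well, at 0.03 ± 0.07 and 0.14 ± 0.09.

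**Figure D2:**
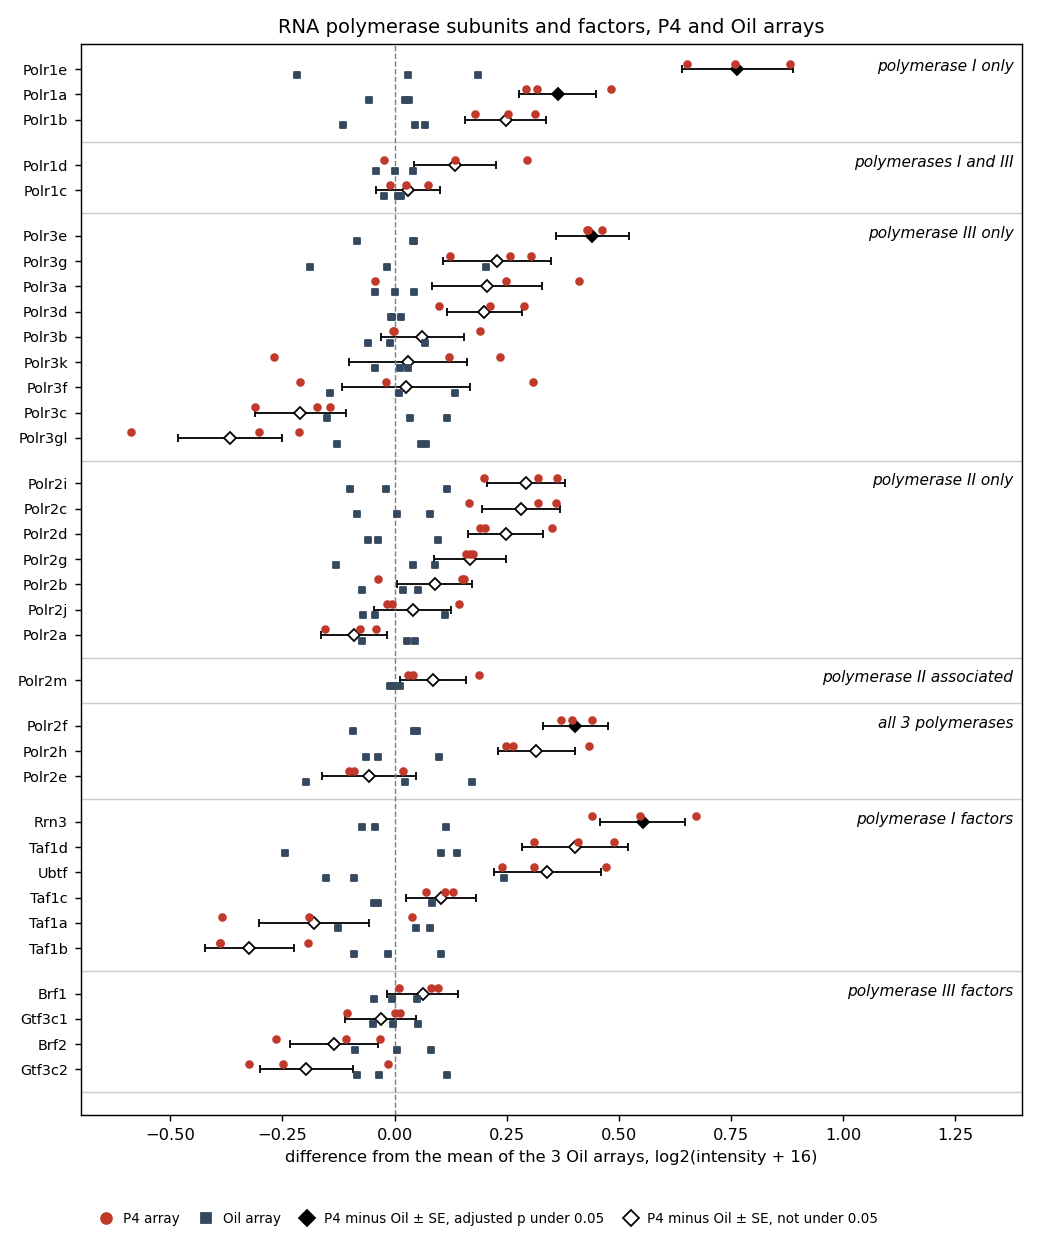
All 35 members by class, with the difference of each array from the mean of the 3 Oil arrays on the log2(intensity + 16) scale (horizontal axis) for P4 arrays (circles) and Oil arrays (squares), and the fitted difference ± SE (diamonds, filled where the limma adjusted p is under 0.05). The 5 filled diamonds, Polr1e, Polr1a, Polr3e, Polr2f and Rrn3, lie to the right of 0.

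Over all 35 members 5 rose (14.3%) and 0 fell, against 6.08% higher and 6.94% lower, or 13.0% in either direction, of all 18193 genes. At an unadjusted limma p under 0.05, 13 members were higher and 2 lower, where 2165 of all 18193 genes were higher and 2677 lower. The groups did not overlap in 14 members that were higher and 2 that were lower, where 14.3% of all genes were higher and 17.5% lower without overlap, or 31.8% in either direction. The median difference of the members was 0.10, beside -0.01 over all genes. Positive differences were found in 26 members and in 8675 of all 18193 genes. With the replicate block 11 members were higher and 2 lower, against 9.29% higher and 11.6% lower, or 20.9% in either direction, of all genes. The hybridisation control probe sets had a P4 minus Oil difference of -0.127 in mean log2 intensity. An exact permutation test (two-sided) gave p 0.1 for it, which is the lowest value possible with 3 arrays in each group. Scaling to them raised the median of all genes by 0.11 and moved the calls over all genes to 1838 higher and 628 lower (74.5% higher), beside 1106 and 1262 without it (46.7% higher). With this scaling 12 members rose and 0 fell, and the median of the members was 0.23.

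Single arrays bear on these counts. Without Oil replicate 2 the members that rose were 3 (Polr1e, Rrn3 and Polr2f). Without both arrays numbered 2, which leaves 2 against 2 arrays, limma called 0 members and 171 genes in all. At an unadjusted limma p under 0.05, 8 members were higher and 1 lower, with no count over all genes taken for this fit. Polr1e then had an adjusted p of 0.109, Rrn3 0.15, Polr2f 0.139, Polr3e 0.156 and Polr1a 0.2, and outside the members Cd3eap had 0.0672 and Maf1 0.113.

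**Figure D3:**
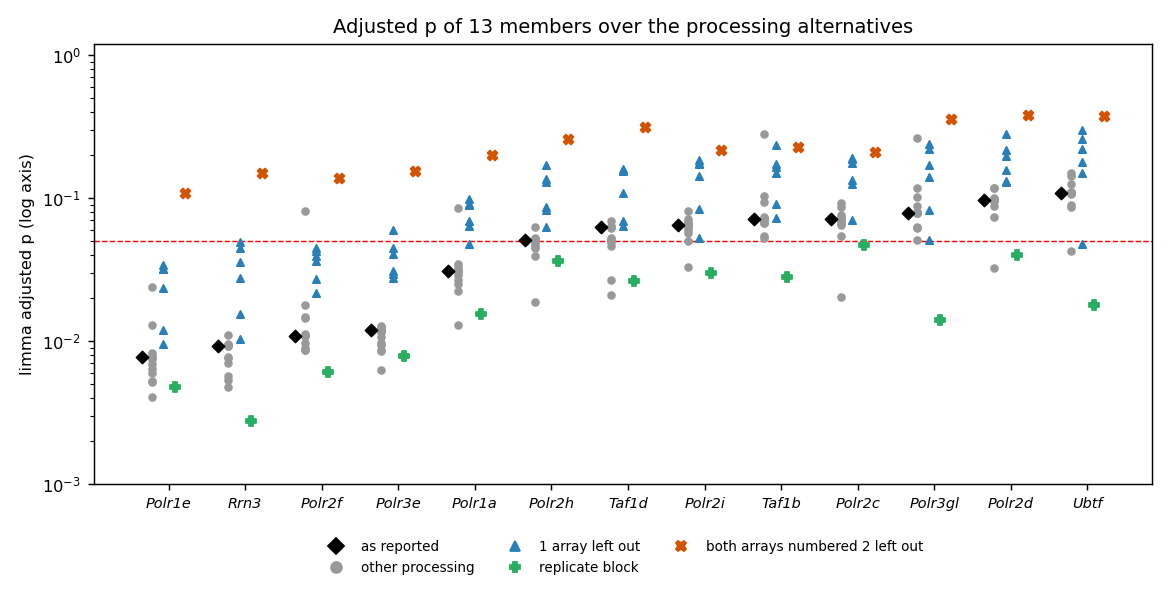
Limma adjusted p (log axis) of the 13 members called as reported or with the replicate block, as reported (diamonds) and under the processing alternatives: other processing (circles), 1 array left out (triangles), the replicate block (plus signs) and both arrays numbered 2 left out (crosses). The dashed line is at 0.05. Polr1e, Rrn3 and Polr2f lie below the line whichever single array is left out, and all 13 crosses lie above it.

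Pooled over the subunits within the symbol rule only, polymerases I and III had the same mean difference as polymerase II to 2 decimals. The 14 such core subunits found in polymerase I, III or both but not in II had a mean difference of 0.15. The 7 found only in II had one of 0.15 (medians 0.17 and 0.17). Cd3eap (0.87), Twistnb (0.09), Znrd1 (0.12) and, from the list of other polymerase III genes, Crcp (0.19) lie outside the rule. They are not in the first mean, and a mean with them was not taken. Of the 14, 3 rose and 0 fell, and of the 7, 0 rose and 0 fell (3 higher and 0 lower at an unadjusted limma p under 0.05). With the replicate block 3 of the 14 were higher and 1 lower, and 3 of the 7 were higher and 0 lower. Of all 18193 genes 6.08% rose and 6.94% fell, and with the block 9.29% were higher and 11.6% lower. At an unadjusted limma p under 0.05, 2165 of all genes were higher and 2677 lower. On single arrays the mean of the 14 minus the mean of the 7, set against the Oil average, was -0.01, 0.07 and -0.04 on the P4 arrays, against -0.01, -0.06 and 0.07 on the Oil arrays, so the groups overlapped. The difference of the class means was 0.0072, beside an SD of 0.064 between arrays of a group.

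The 3 members specific to polymerase I (Polr1a, Polr1b and Polr1e) averaged 0.44, 0.50 and 0.43 above the Oil mean on the P4 arrays. Their averages on the Oil arrays were 0.04, -0.05 and 0.01. Of the polymerase I subunits outside the symbol rule, which are not in this mean, Cd3eap did not overlap between groups. Twistnb and Znrd1 did. The 9 members specific to polymerase III averaged 0.04, 0.15 and 0.01 on the P4 arrays, against 0.03, -0.03 and 0.00 on the Oil arrays. The polymerase I means thus lay apart between groups, while those of polymerase III overlapped. The 7 polymerase II subunits averaged 0.13, 0.15 and 0.16 on the P4 arrays, against 0.03, 0.04 and -0.06 on the Oil arrays. These means lay apart between groups too, as did those of the 3 subunits shared by all enzymes. The latter were 0.19, 0.24 and 0.24 on the P4 arrays, against 0.06, 0.06 and -0.12 on the Oil arrays. The 10 factors averaged 0.09, 0.05 and 0.03 on the P4 arrays, against 0.07, -0.03 and -0.04 on the Oil arrays. These means are descriptions, with no test between classes.

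**Figure D4:**
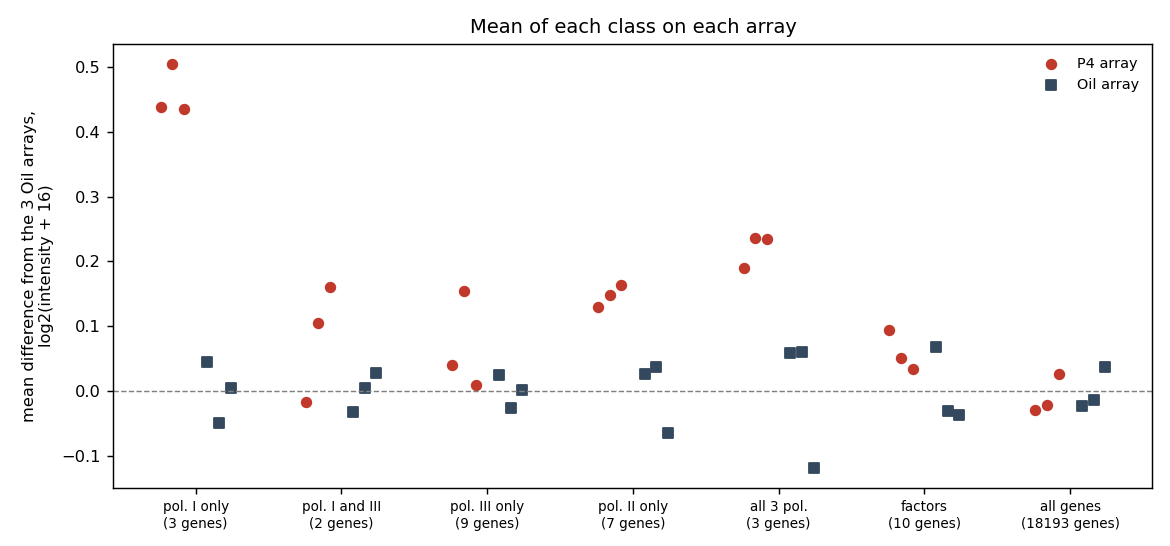
Mean of each class on each of the 3 P4 arrays (circles) and the 3 Oil arrays (squares), as the difference from the Oil average on the log2(intensity + 16) scale (vertical axis), with the number of genes under each class. On P4 arrays the 3 polymerase I members lie between 0.43 and 0.50 and the 7 polymerase II members between 0.13 and 0.16. The 9 polymerase III members reach at most 0.15.

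Probe sets of the same gene mostly gave differences of 1 sign. Of the 35 members 18 had more than 1 probe set, with 43 probe sets beyond those used, and 33 of the 43 had the sign of the probe set used. Of the 10 with the opposite sign, 1 had an unadjusted limma p under 0.05: a probe set of Gtf3c1 with a difference of 0.27 ± 0.10, where the one used had -0.03.

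**Figure D5:**
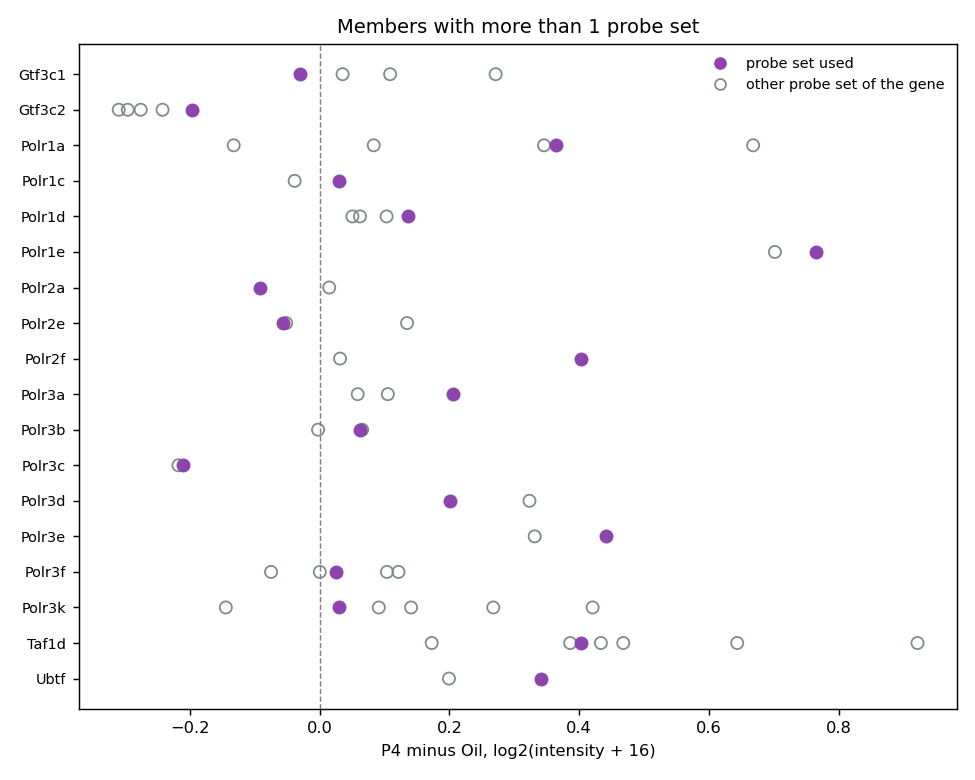
P4 minus Oil difference on the log2(intensity + 16) scale (horizontal axis) of every probe set of the 18 members that have more than 1, with the probe set used filled and the others open. Both probe sets of Polr1e lie near 0.7, all 7 of Taf1d lie above 0 and all 5 of Gtf3c2 lie below it.

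Genes around polymerase II were called in both directions, as were genes over the whole array (6.08% higher and 6.94% lower). Among 17 general initiation factors Gtf2e1 (0.44 ± 0.09, adjusted p 0.0178), of TFIIE, and Gtf2a1 (0.44 ± 0.09, adjusted p 0.0159), of TFIIA, rose and 0 fell. Among 14 TFIID subunits Taf4b (0.81 ± 0.11, adjusted p 0.00403), Taf13 (0.66 ± 0.09) and Taf10 (0.53 ± 0.10) rose, and Taf8 fell by 0.32 ± 0.07 (adjusted p 0.0286). Of 31 Mediator genes Med8 (0.37 ± 0.09) and Med15 (0.35 ± 0.08) rose and the kinase gene Cdk19 fell by 0.66 ± 0.08 (adjusted p 0.00245). Of 26 elongation genes Aff1 (0.68 ± 0.12, adjusted p 0.0091), a scaffold of the super elongation complex, and Cdc73 (0.45 ± 0.12), of the PAF complex, rose, and Tcea3, a form of elongation factor TFIIS, fell by 0.70 ± 0.12 (adjusted p 0.0106). The shares called higher were 11.8% of the general factors, 21.4% of TFIID, 6.45% of Mediator and 7.69% of the elongation genes. With the block the elongation counts were 5 higher and 2 lower and the Mediator counts 3 higher and 2 lower. Over all genes 9.29% were higher and 11.6% lower with it. The median differences of these 4 lists were 0.14, 0.07, 0.04 and 0.02, beside -0.01 over all genes.

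Several of these calls were lost with 5 arrays in place of 6. Taf8 lost its call without any 1 of the 6 arrays (adjusted p up to 0.107), Med8 without any but P4 replicate 1 (0.125) and Cdc73 without any but P4 replicate 3 (0.145). Med15 lost its call without any 1 Oil array or P4 replicate 2 (up to 0.096), Gtf2e1 without Oil replicate 1 or 2 or P4 replicate 2 or 3 (up to 0.0797), and Gtf2a1 (up to 0.0755) and Taf10 (up to 0.0671) without Oil replicate 1 or 2. In the fits that lost these calls the differences were -0.34 to -0.30 for Taf8, 0.31 to 0.40 for Med8, 0.36 to 0.49 for Cdc73, 0.34 to 0.38 for Med15, 0.39 to 0.45 for Gtf2e1, 0.415 to 0.43 for Gtf2a1 and 0.49 to 0.51 for Taf10, so the sizes stayed near those given above. Taf8 also missed the threshold with scaling to the hybridisation controls (0.168) and without probe sets of the _x_at and _s_at kinds, which can cross-hybridise (0.109). With the mean of all probe sets Med8 (0.782), Med15 (0.128), Cdc73 (0.324) and Gtf2a1 (0.0909) missed it.

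Among 17 genes that assemble polymerases in the cytoplasm or bring them into the nucleus, Hsp90aa1, the inducible HSP90 chaperone, rose by 0.52 ± 0.11 (adjusted p 0.0173, and 0.0605 without P4 replicate 2). Wdr92 rose by 0.37 ± 0.08 and Pih1d1, an adaptor of the chaperone complex R2TP, fell by 0.30 ± 0.08. The calls of Wdr92 (adjusted p up to 0.114) and Pih1d1 (up to 0.139) were lost without any 1 of the 6 arrays, and with the mean of all probe sets (0.0582 for Wdr92 and 0.469 for Pih1d1). Wdr92 also missed the threshold without the _x_at and _s_at probe sets (0.0815), and Pih1d1 with quantile normalization (0.0575) and with scaling to the hybridisation controls (0.195). With the block 4 of the 17 were higher and 1 lower, beside 9.29% and 11.6% of all genes. Of 5 mitochondrial transcription genes 0 passed in either direction, beside 13.0% of all genes. At an unadjusted limma p under 0.05, 1 was higher and 1 lower. Polrmt, the mitochondrial RNA polymerase, had 384, 377 and 311 on the P4 arrays, against 259, 280 and 286 on the Oil arrays, without overlap (0.35 ± 0.10, adjusted p 0.0629, and 0.0436 with the block).

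Genes known to control polymerases I and III with growth had differences of both signs. Of 8 measured, 0 rose and 2 fell by limma, beside 6.08% and 6.94% of all genes. At an unadjusted limma p under 0.05, 2 were higher and 3 lower. With the block 1 rose and 3 fell, beside 9.29% and 11.6% of all genes. Myc, which drives ribosome production, had 584, 877 and 977 on the P4 arrays, against 467, 484 and 550 on the Oil arrays. The groups did not overlap, P4 replicate 1 was the lowest of its group, and the difference was 0.65 ± 0.18 (adjusted p 0.0517, and 0.00713 with the block). Myc passed under 7 of 20 alternatives, among them quantile normalization (0.0443), median centring (0.044), array weights (0.0219) and leaving out P4 replicate 1 (0.00427), and over all 20 its adjusted p ran up to 0.372. Mycn, its relative, had 127, 128 and 179 on the P4 arrays, against 231, 252 and 474 on the Oil arrays, and fell by 1.003 ± 0.26 (adjusted p 0.0414). That call was lost without Oil replicate 2 or any 1 P4 array (up to 0.132), with robust moderation (0.0753) and with the mean of its probe sets (0.0894). Maf1, described above, was the other gene that fell. Mycl had 203, 168 and 151 on the P4 arrays, against 260, 218 and 241 on the Oil arrays, without overlap. Its difference was -0.43 ± 0.12 (adjusted p 0.0555, and 0.0156 with the block).

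Markers of other cell types moved beside these results. The summed intensity of 5 epithelial markers (Epcam, Cdh1, Krt8, Krt18 and Krt19) was 11411, 7690 and 12901 on the P4 arrays, against 13241, 12904 and 14684 on the Oil arrays, and 0 of the 5 passed by limma (2 lower at an unadjusted p under 0.05, and 3 lower with the block). Their part in the members' differences was not tested. No marker was listed at 0 on any array. P4 replicate 2 had the lowest epithelial sum. The sum of P4 replicate 3 (12901) was about level with that of Oil replicate 2 (12904). Epcam, Cdh1 and Krt8 overlapped between groups, and Krt18 and Krt19 were lower on P4 arrays without overlap. The sum of 5 granulocyte markers ran from 517 to 15425 on P4 arrays and from 597 to 11019 on Oil arrays, and that of 5 immune markers from 592 to 2115 on P4 arrays and from 799 to 2078 on Oil arrays, with 0 of either list called and 0 at an unadjusted limma p under 0.05. Stromal sums were 24642 to 29750 on P4 arrays and 28021 to 30015 on Oil arrays, with Hand2 called higher, and smooth muscle sums 27613 to 31307 on P4 arrays and 29623 to 29982 on Oil arrays, with 0 of 4 called and 0 at an unadjusted p under 0.05. Endothelial sums were 3533 to 4013 on P4 arrays and 4101 to 4436 on Oil arrays, with Tek called lower. The sum of 3 genes of dividing cells ran from 707 to 2238 on P4 arrays and from 484 to 2113 on Oil arrays, with 0 of 3 called and 0 at an unadjusted limma p under 0.05. The ratio of distal to proximal Gapdh control probe sets was 2.37, 1.499 and 1.73 on the P4 arrays, against 1.84, 1.56 and 1.54 on the Oil arrays (two-sided exact permutation test, p 0.7).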

How the data were processed

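Gene expression was measured on 6 arrays hybridised with biotin-labelled cRNA from total RNA of uterine horns, 3 from P4 and 3 from Oil animals. The authors deposited linear intensities, 1 per probe set and array. Their summary method and scaling are not given in the sources used here. A base 2 log was taken after adding 16, and no scaling was added, since array medians differed by 0.0595 log2, under a limit of 0.5. Of 45101 probe sets 64 are controls, 34945 have 1 gene symbol in the platform annotation, 932 have several and 9160 are unnamed here. Where a gene had several probe sets, that of the highest mean log2 value over the 6 arrays stood for it. All 35 members matched a RefSeq gene by gene ID. No filter on low values was applied.

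The comparison used limma 3.58.1 (lmFit, then eBayes with an intensity trend; R 4.3.3) over all 18193 genes, without covariates, with Benjamini-Hochberg adjustment and a threshold of 0.05. The fit was also run on simulated data with independent noise. The outcome of that run is not given here, and it does not bear on the calls of the members. Precision is limited by having 3 arrays in a group. No 2 arrays shared more than 18 identical values. After group means were subtracted, arrays numbered 1, 2 and 3 correlated with their namesakes in the other group at 0.53, 0.13 and 0.64. Each value was above the limit of 0.1. The arrays were therefore treated as pairs in the fit with the replicate block, while the fit that gave the calls had no pairing. This pairing rests on the data alone, and the second Oil array was closer to the first P4 array (0.29). Alternatives were other scalings, other choices of probe set, a filter on dim genes, pseudocounts of 1 and 50, other moderation, array weights, the replicate block, each array left out and both arrays numbered 2 left out. The members, lists, classes and alternatives were chosen with earlier results of these data known. All members are accounted for. Array values are given for called members, the catalytic subunits, Polr3g and Polr3gl, and the 4 uncalled members of lowest p. From each list up to 4 called genes in each direction are named, with some further genes as values. Figures were drawn with matplotlib 3.10.9.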

Additional observations from a re-analysis of the deposited data

How the results depend on the processing

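The 5 increases among the members kept their direction under every alternative run, and each lost its call under at least 1 of them. With 1 array left out the genes called over all ran from 993 to 2302, the members called higher from 3 to 5, those of polymerases I and III with their factors from 2 to 4, those named Polr2 stayed at 1, and the class mean difference ran from -0.0266 to 0.0422. With both arrays numbered 2 left out the counts were 171 genes and 0 members higher (0 of polymerases I and III, 0 named Polr2), and the class mean difference was -0.0591. With the replicate block 3801 genes were called, with 11 members higher, 2 lower and 5 named Polr2 higher. Scaling to the hybridisation controls gave 12 members higher, 7 of polymerases I and III and 5 named Polr2. The members named Polr2 that rose were 2 with median centring, with the dimmest 30% left out or with robust moderation, and 1 member fell (Gtf3c2) with the mean of all probe sets. Leaving out the dimmest 30% removed Polr3g, and leaving out the _x_at and _s_at probe sets, which can cross-hybridise, removed Taf1c.

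Signs turned for 9 genes, none of them called in these fits. With scaling to the hybridisation controls Gtf3c1 had 0.0934, Polr2a 0.036 and Polr2e 0.0694. With the mean of all probe sets Gtf3c1 had 0.0961, Polr1c -0.0042 and Polr2e 0.0087. Without the _x_at and _s_at probe sets Polr1c had -0.0385, Polr2e 0.1347 and Polr3b -0.0024. With 1 array left out Gtf3c1 ran from -0.0545 to 0.0073, Polr2e from -0.1553 to 0.0292, Polr2j from -0.0107 to 0.0972 and Polr3b from -0.0018 to 0.0968. Polr3f ran from -0.1152 to 0.1443, Polr3k from -0.073 to 0.1789 and Tbp from -0.0612 to 0.1008. Without both arrays numbered 2 Polr3b had -0.0315, Polr3f -0.1869, Polr3k -0.01 and Tbp -0.0382. The cause of these turns and of the changed counts was not tested, though leaving arrays out also leaves fewer degrees of freedom. The deposited values carry no measure of signal over background.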
